A study of Mus musculus with 2 samples.

Results

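Membrane transporters and ion channels are described here in 46C mouse embryonic stem cells that overexpressed Flag-tagged Prdm14, beside cells of the same line that overexpressed the Flag tag alone. The genes were chosen by symbol: all those starting with Slc, Slco, Abca, Abcb, Abcc, Abcd, Abcg, Atp1, Atp2, Atp8, Atp9, Atp11, Atp13, Kcn, Cacn, Scn, Clcn, Trpc, Trpm, Trpv, Aqp, Gabr, Gria, Grik or Grin among the 886 genes that the authors listed as different. The rule took 37 genes, and each of them encodes a transporter, a pump or a channel subunit. The authors chose the 886 genes on the comparison reported here, so that a gene is listed is not a finding, and its values are given as a description with no test.

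Both cultures were grown in serum with the cytokine LIF, and RNA was taken with Trizol and sequenced on an MGI2000 instrument. The labels give 1 sample per condition, 46C is a single line carrying a reporter at the neural gene Sox1, and the number of clones or cultures is not given. Values are the authors' mean TPM, a measure of transcript abundance scaled to a fixed total per library and by transcript length. This scaling is meant to make levels of different genes comparable. The TPM program is not given in the sources used here, so an order of level between genes is approximate. The files hold no value per replicate and no read count, so there is no SD, the depth is unknown, and no difference could be set against a spread between replicates. A gene called "higher" or "lower" is so in Prdm14 cells against Flag cells, and folds are ratios of the authors' means. Prdm14 itself stood at 3.30 TPM in Flag cells and 399 TPM in Prdm14 cells, in the direction of the labels; the series' design text names gadd45g instead, and Gadd45g was at 21.6 and 3.57 TPM. Of 6 stem cell markers looked up, Nanog, Zfp42, Esrrb and Klf4 were in the table, at 117, 232, 84.8 and 15.8 TPM in Flag cells and 344, 649, 229 and 56.1 TPM in Prdm14 cells. All 4 were thus higher, while the 37 genes described here went both ways, 17 higher and 20 lower. The part of these markers in the differences described here was not tested. Pou5f1 and Sox2 have no value. In bulk RNA, fewer cells expressing a gene and less RNA per cell cannot be told apart. Coordinates are on mm10.

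Solute carriers move a solute across a membrane down its own gradient or coupled to that of an ion, while ABC transporters and P-type ATPases use ATP. Ion channels open a pore through which ions flow passively, gated by voltage, by a ligand or by partner proteins. In embryonic stem cells, carriers bring in the amino acids, nucleosides and vitamins that growth and chromatin modification draw on, and many channel genes better known from neurons are transcribed at low levels.

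Of the 37 genes, 17 were higher and 20 lower in Prdm14 cells. The share of higher genes was 45.9%, against 52.8% over all 886 listed genes, and the share of lower genes was 54.1% against 47.2%. Large differences were few: 4 genes were at least 4-fold higher, which is 10.8% against 8.69% over the table, and 4 were at least 4-fold lower, which is 10.8% against 16.4%. The median fold was 2.73 among the higher genes and 2.39 among the lower ones, against 2.56 and 3.03 over the table. These shares lie near those of the table, so the counts say nothing particular about transporters and channels as a whole.

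**Figure D1:**
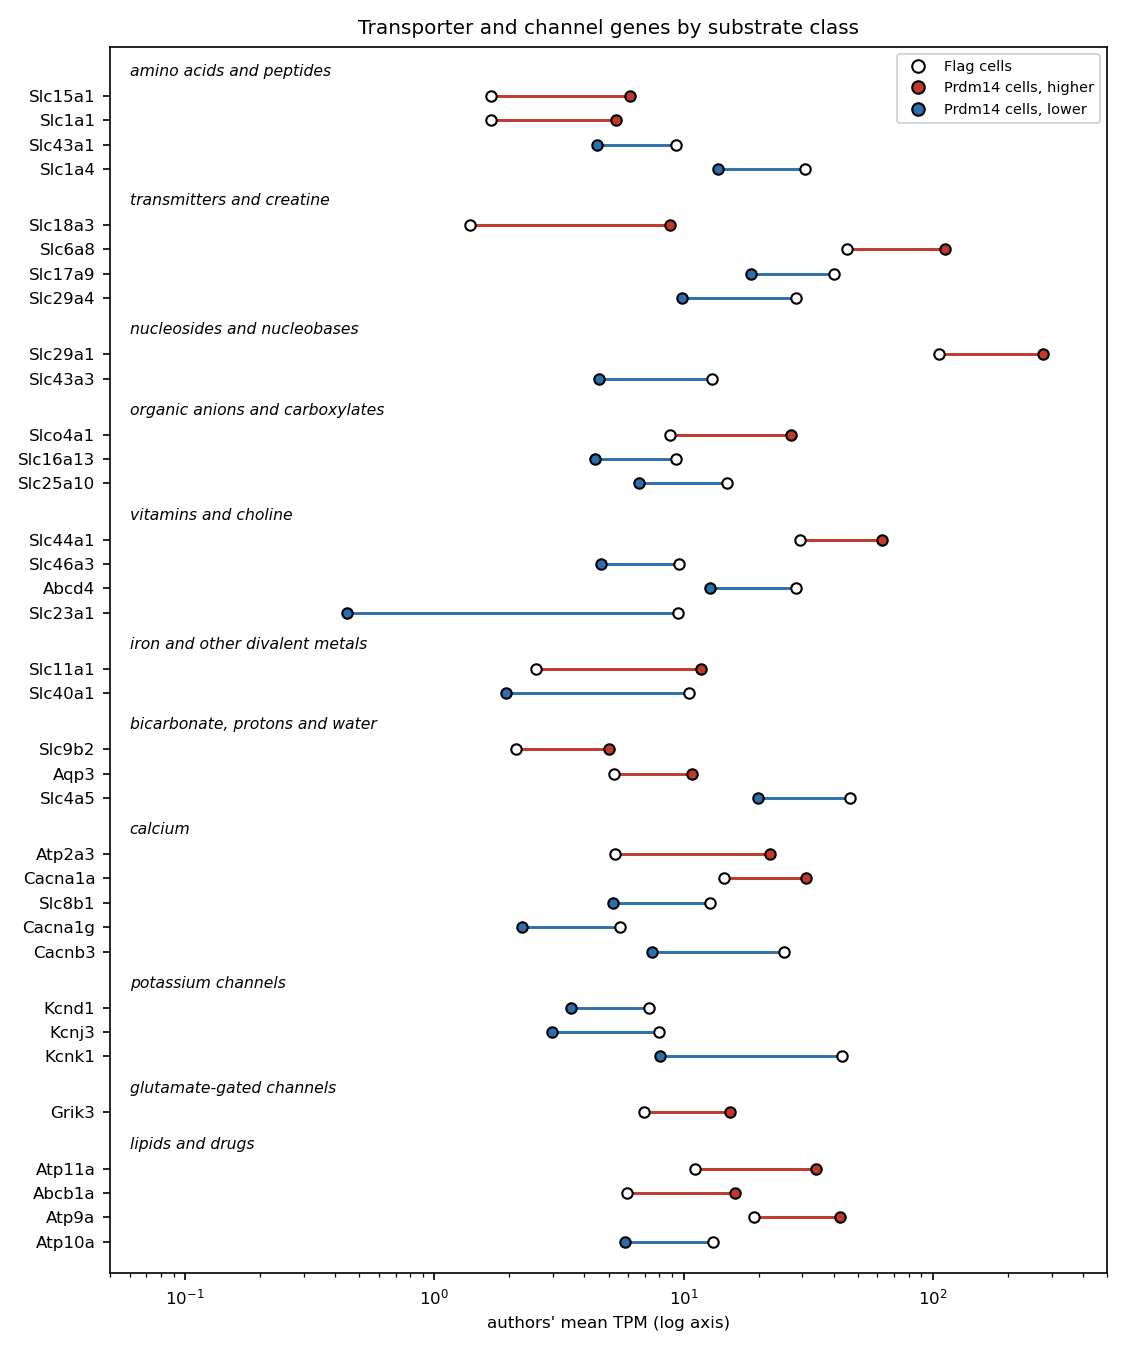
Authors' mean TPM (log axis) of 35 of the 37 transporter and channel genes in Flag cells (open circles) and Prdm14 cells (filled circles, red where higher and blue where lower), grouped by substrate; the connecting line is the difference between both means. All 3 potassium channel genes are lower, most other groups hold genes of both directions, and Slc23a1 has the longest line drawn.

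The genes that differed least lie near the limits of the table. The smallest absolute log2 fold change of any listed gene is 1.00, and Kcnd1 and Slc46a3 (both -1.03) and Aqp3 (1.04) were close to it in the authors' deposited table. The smallest value of the larger mean over the whole table is 5.01 TPM, and this is the value of Slc9b2 in Prdm14 cells. For unlisted genes of these families the file gives no value, and nothing is read from their absence.

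Start windows, from 250 bases before to 50 bases after the first transcribed base in RefSeq (GRCm38.p6), were at hand for 24 of the 37 genes. The sequences before the start are printed for a pair of the same family that differed in direction, the glutamate carrier gene Slc1a1 (higher) and the neutral amino acid carrier gene Slc1a4 (lower), and for the gene with the largest increase and the gene with the largest decrease among those with a window, the acetylcholine carrier gene Slc18a3 and the potassium channel gene Kcnk1. They are written 5′ to 3′ on the strand of the gene, with CpG dinucleotides, the sites of DNA methylation in mammals, in capitals. They span chr19:28834885-28835134 (plus strand), chr11:20332714-20332963 (minus), chr14:32464851-32465100 (minus) and chr8:125994852-125995101 (plus).
Slc1a1: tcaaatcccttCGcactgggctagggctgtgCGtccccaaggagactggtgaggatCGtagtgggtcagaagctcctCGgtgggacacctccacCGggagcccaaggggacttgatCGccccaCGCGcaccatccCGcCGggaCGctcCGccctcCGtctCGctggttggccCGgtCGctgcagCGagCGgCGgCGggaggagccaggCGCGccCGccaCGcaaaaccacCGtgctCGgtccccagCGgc
Slc1a4: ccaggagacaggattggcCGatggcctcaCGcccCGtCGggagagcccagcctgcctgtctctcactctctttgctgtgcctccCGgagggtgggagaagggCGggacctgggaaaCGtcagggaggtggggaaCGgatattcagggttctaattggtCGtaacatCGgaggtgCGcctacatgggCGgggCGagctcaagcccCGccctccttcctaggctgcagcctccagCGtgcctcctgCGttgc
Slc18a3: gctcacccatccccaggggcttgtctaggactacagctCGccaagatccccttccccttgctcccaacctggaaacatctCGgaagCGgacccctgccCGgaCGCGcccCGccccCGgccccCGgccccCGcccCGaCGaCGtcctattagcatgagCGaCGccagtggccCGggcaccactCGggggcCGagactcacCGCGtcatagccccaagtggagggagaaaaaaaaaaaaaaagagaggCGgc
Kcnk1: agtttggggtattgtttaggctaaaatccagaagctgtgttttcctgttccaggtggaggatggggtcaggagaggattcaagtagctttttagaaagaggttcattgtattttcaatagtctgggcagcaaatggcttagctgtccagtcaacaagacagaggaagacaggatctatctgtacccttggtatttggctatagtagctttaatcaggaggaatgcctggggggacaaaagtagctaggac

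These 250 bases hold 27 CpG in Slc1a1, 16 in Slc1a4, 21 in Slc18a3 and 0 in Kcnk1. None of the 10 CpG of the whole Kcnk1 window thus lies wholly before its start. The RefSeq start of Kcnk1 lies 68 bases before the annotated gene start, and that of Slc1a1 lies 86 bases after it.

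Amino acid and peptide carriers split by direction, with 2 higher and 2 lower. Slc1a1, which takes up glutamate and aspartate, was at 1.69 TPM in Flag cells and 5.35 TPM in Prdm14 cells, 3.16-fold higher. Slc1a4, the carrier of serine, alanine and other small neutral amino acids in the same family, was at 30.8 and 13.8 TPM, 2.24-fold lower. The order of these relatives was the same in both conditions, with Slc1a4 above Slc1a1, while the gap between them was narrower in Prdm14 cells. Slc15a1, a proton-coupled carrier of short peptides known from the gut, was at 1.69 and 6.08 TPM, 3.61-fold higher. Slc43a1, a sodium-independent carrier of large neutral amino acids, was at 9.35 and 4.51 TPM, 2.07-fold lower. Both higher genes of this group were below 2 TPM in Flag cells.

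Among carriers of transmitters and of creatine, Slc18a3, which loads acetylcholine into vesicles, was at 1.39 TPM in Flag cells and 8.83 TPM in Prdm14 cells, 6.34-fold higher. It lies on chromosome 14 (ENSMUSG00000100241, 32462438 to 32464850, minus strand) inside the span of Chat on the same strand, so its value is uncertain. With 1 TPM added to both means the fold was 4.11. Same-strand overlaps with an annotated gene were found for 6 of the 37 genes. Grik3, Atp9a, Atp10a and Abcb1a are among them, so their values are uncertain too. Slc6a8, the creatine carrier, was at 45.3 and 112 TPM, 2.47-fold higher, and was the second most abundant of the 37 genes in Prdm14 cells. On the lower side, Slc17a9, which loads ATP into vesicles, was at 40.1 and 18.7 TPM, 2.15-fold lower. Slc29a4, a membrane carrier of monoamines, was at 28.4 and 9.83 TPM, 2.88-fold lower.

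Slc29a1, the equilibrative carrier that brings nucleosides into cells, was the most abundant of the 37 genes in both conditions. It was at 106 TPM in Flag cells and 276 TPM in Prdm14 cells, 2.60-fold higher (ENSMUSG00000023942, chromosome 17, 45585200 to 45599606, minus strand), so Slc29a1 and its relative Slc29a4 differed in direction. Slc43a3, a carrier of purine nucleobases, was at 13.03 and 4.57 TPM, 2.85-fold lower. Slc29a1 weighs on any total: the 37 genes summed to 641 TPM in Flag cells and 839 TPM in Prdm14 cells, a ratio of 1.31, and without Slc29a1 to 535 and 564 TPM, a ratio of 1.05.

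**Figure D2:**
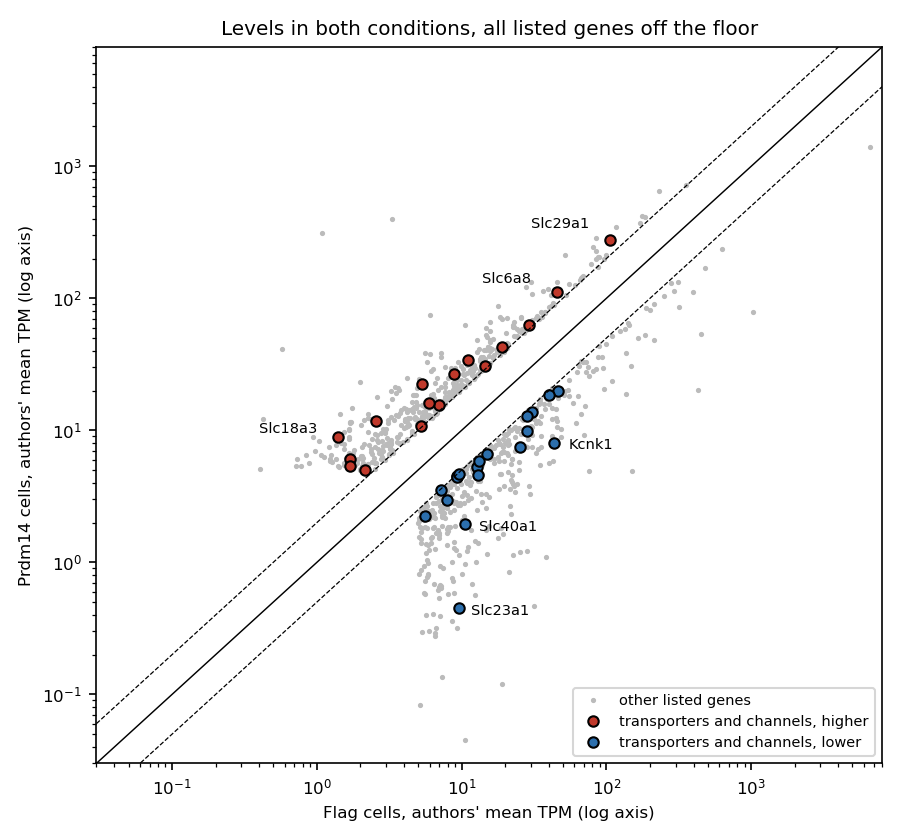
Authors' mean TPM in Flag cells against Prdm14 cells (both log axes) for the listed genes off the table's floor of 0.0001 TPM, with transporters and channels in red (higher) and blue (lower) and other listed genes in gray; the solid line is equality and the dashed lines are 2-fold differences. Slc29a1 and Slc6a8 are at the upper end of the 35 transporter and channel genes drawn, and Slc23a1, at 0.448 TPM in Prdm14 cells, is at the lower end.

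Carriers of organic anions and of carboxylates went both ways. Slco4a1, an organic anion carrier, was at 8.86 TPM in Flag cells and 26.9 TPM in Prdm14 cells, 3.03-fold higher. Slc16a13, of the monocarboxylate family, was at 9.33 and 4.42 TPM, 2.11-fold lower. Slc25a10, the dicarboxylate carrier of the inner mitochondrial membrane, was at 15.0 and 6.62 TPM, 2.26-fold lower. Of the 47 annotated Slc25 genes it was the single one listed, where 3.79% of all protein-coding genes were. The other Slc25 genes have no value, so nothing is read from this count.

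Of the 4 genes grouped as vitamin and choline carriers, 3 were lower, where 47.2% of all listed genes were. With 4 genes, grouped with earlier results of these data known, this is a count and no more. Slc23a1, a sodium-coupled carrier of vitamin C, was at 9.53 TPM in Flag cells and 0.448 TPM in Prdm14 cells, 21.3-fold lower (7.27-fold with 1 TPM added). It lies on chromosome 18 (ENSMUSG00000024354, 35614604 to 35627244, minus strand) and overlaps Paip2 on the other strand. Whether the libraries kept strand is not given in the sources used here, so reads of such partners cannot be told apart. Abcd4, a lysosomal ABC transporter needed for the release of cobalamin, was at 28.3 and 12.8 TPM, 2.21-fold lower. Slc46a3, grouped here as a lysosomal relative of the proton-coupled folate carrier, was at 9.56 and 4.68 TPM, 2.04-fold lower. Slc44a1, a choline carrier, went the other way at 29.4 and 62.6 TPM, 2.13-fold higher.

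Both listed iron carriers differed in opposite directions. Slc11a1, a proton-coupled carrier of divalent metals best known from the phagosomes of macrophages, was at 2.56 TPM in Flag cells and 11.8 TPM in Prdm14 cells, 4.60-fold higher (ENSMUSG00000026177, chromosome 1, 74375195 to 74386062, plus strand). Slc40a1, which encodes ferroportin, the iron exporter of the cell surface, was at 10.5 and 1.94 TPM, 5.42-fold lower (ENSMUSG00000025993, chromosome 1, 45908068 to 45926523, minus strand). The exporter was thus the more abundant of both transcripts in Flag cells and the less abundant in Prdm14 cells. With 1 TPM added to both means the folds were 3.59 for Slc11a1 and 3.91 for Slc40a1. None of the 10 annotated Slc30 and 14 Slc39 genes, the zinc carrier families, was in the table, where 3.79% of all protein-coding genes were. They have no value, so nothing is read from their absence.

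Among carriers of bicarbonate, protons and water, Slc4a5, a sodium-bicarbonate cotransporter, was at 46.5 and 19.97 TPM, 2.33-fold lower. It had the highest level in Flag cells among the lower genes. Slc9b2, a sodium-proton exchanger, was at 2.13 and 5.01 TPM, 2.35-fold higher, and Aqp3, a channel for water and glycerol, was at 5.27 and 10.8 TPM, 2.06-fold higher.

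Calcium-handling genes held 2 higher and 3 lower members. Atp2a3, a pump that returns calcium to the endoplasmic reticulum, was at 5.30 TPM in Flag cells and 22.3 TPM in Prdm14 cells, 4.20-fold higher (ENSMUSG00000020788, chromosome 11, 72961169 to 72993044, plus strand). The pore subunits of voltage-gated calcium channels differed in direction. Cacna1a, the high-voltage P/Q-type pore, was at 14.6 and 30.9 TPM, 2.12-fold higher, while Cacna1g, a low-voltage T-type pore, was at 5.54 and 2.25 TPM, 2.46-fold lower. Cacna1a lies on chromosome 8, where 51 listed genes were higher and 13 lower. Cacnb3, a cytoplasmic subunit that accompanies high-voltage pores such as Cacna1a, was at 25.2 and 7.46 TPM, 3.38-fold lower. In Flag cells Cacnb3 stood above Cacna1a and in Prdm14 cells below it. Slc8b1, the sodium-calcium exchanger of mitochondria, was at 12.8 and 5.23 TPM, 2.45-fold lower.

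All 3 listed potassium channel genes were lower. Kcnk1, a tandem-pore-domain channel of the background current type, was at 43.3 TPM in Flag cells and 8.02 TPM in Prdm14 cells, 5.40-fold lower (ENSMUSG00000033998, chromosome 8, 125995170 to 126030685, plus strand). On chromosome 8 most listed genes, 51 against 13, were higher, so Kcnk1 went against the majority there. Kcnj3, a G-protein-gated inward rectifier, was at 7.96 and 2.97 TPM, 2.68-fold lower, and Kcnd1, a voltage-gated A-type channel on chromosome X, where 35 listed genes were lower and 6 higher, was at 7.25 and 3.55 TPM, 2.04-fold lower. With 3 genes, and with 47.2% of all listed genes lower, this is a count and no more. Grik3, a kainate-type glutamate receptor subunit, was the single listed ligand-gated channel of the rule, at 6.94 and 15.4 TPM, 2.22-fold higher.

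Of the transporters of lipids and drugs, 3 of 4 were higher, where 52.8% of all listed genes were. This group of 4 was also drawn with earlier results known, so nothing is read from the count. The phospholipid flippase family, which keeps the leaflets of a membrane different in lipid content, had listed members of both directions. Atp11a was at 11.1 TPM in Flag cells and 34.1 TPM in Prdm14 cells, 3.08-fold higher. This gene is on chromosome 8, where 51 listed genes were higher and 13 lower. Atp9a was at 19.1 and 42.6 TPM, 2.23-fold higher. Atp10a was at 13.2 and 5.83 TPM, 2.26-fold lower. Abcb1a, the drug efflux pump also called P-glycoprotein, was at 5.91 and 16.2 TPM, 2.73-fold higher. Abcb1a has a close copy in Abcb1b, so reads may be split between them and its value is uncertain.

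**Figure D3:**
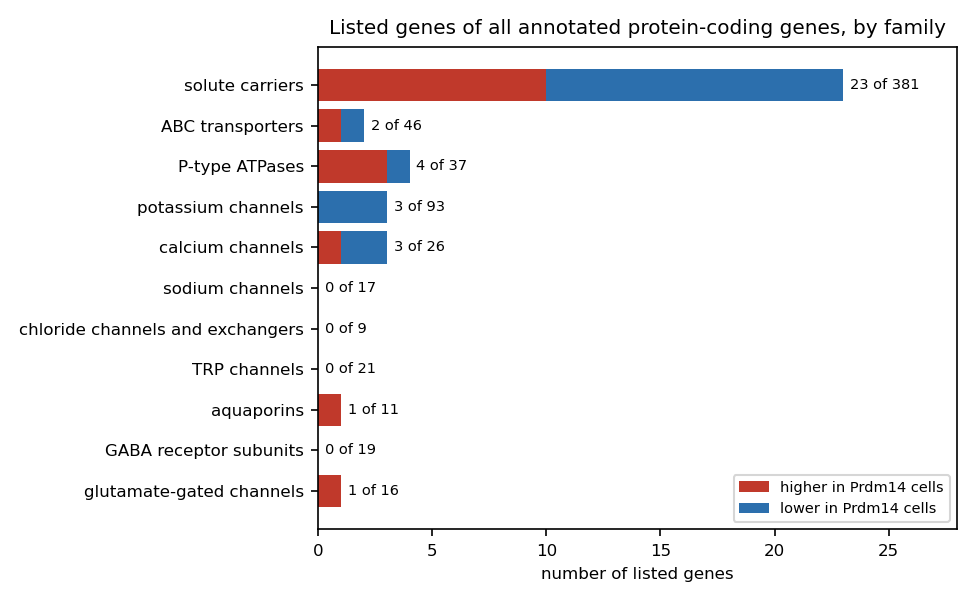
Number of listed genes in each family of the rule, split into those higher (red) and lower (blue) in Prdm14 cells; the text beside each bar gives the listed genes of all annotated protein-coding genes of the family. Solute carriers make up 23 of the 37 genes.

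By family, 23 of 381 annotated protein-coding Slc and Slco genes were listed (6.04%), as were 4 of 37 genes of P-type ATPases and their subunits, 3 of 93 genes of potassium channels and their subunits or partners, 3 of 26 calcium channel genes and 2 of 46 ABC transporter genes. Over the whole rule 37 of 676 annotated genes were listed (5.47%), and over all protein-coding genes 832 of 21951 (3.79%). No sodium channel, chloride channel, TRP channel or GABA receptor gene was listed, of 17, 9, 21 and 19 annotated. These totals leave out 10 annotated genes that match the symbol starts by letters only, such as Atp23 and Scnm1. The table does not say which of these were expressed, and its minimum level leaves out genes under 5.01 TPM in both conditions. The listed carriers were spread thinly: 17 of 49 numbered Slc families had a listed gene and 5 had more than 1. Both listed Slc43 genes were lower, and the Slc1 and Slc29 families had 1 gene of each direction.

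Among these genes the authors' q-values did not simply follow level or fold. The smallest, 8.24e-34, belongs to Slc23a1 in the authors' deposited table, and the largest, 0.00386, to Slc9b2. Slc6a8, with means of 45.3 and 112 TPM, has a q of 0.00104 in the authors' deposited table, while Slc44a1, at lower levels and a smaller fold, has 6.44e-13. All 37 genes have a q of at most 0.01 in the authors' deposited table, and 34 have one of at most 0.001, the exceptions being Slc9b2, Aqp3 (0.00375) and Slc6a8. The test behind these values is not given in the sources used here.

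The start windows were compared with those of all genes in the same RefSeq table. Over the whole windows of 300 bases, the median was 21 CpG in the 24 genes, 18 in the 645 listed genes with a window and 11 in all 20595 genes with one. The 14 higher genes had a median of 22.5 CpG, with a range of 2 to 50, and the 10 lower genes had 17.5, with a range of 6 to 26. The smallest counts, 2 in Abcb1a and 6 in Slc4a5, come from windows 92986 and 17547 bases from the annotated gene start. The range of the lower genes lies within that of the higher ones, and the medians had the same order over the table, at 20 CpG for higher and 15 for lower genes. RefSeq and the gene annotation differ on some starts: 18 windows, 13 of higher and 5 of lower genes, lie within 1 kb of the annotated gene start. Their medians were 24 and 15 CpG, with ranges of 7 to 50 and 10 to 23.

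**Figure D4:**
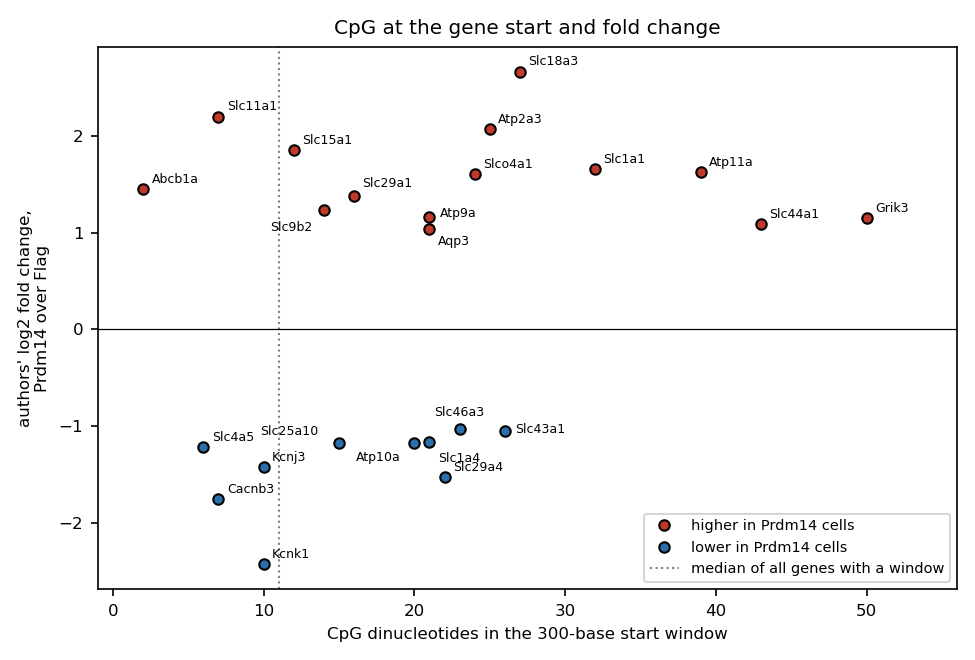
CpG dinucleotides in the 300-base start window (x axis) against the authors' log2 fold change of Prdm14 over Flag (y axis) for the 24 transporter and channel genes with a window, red where higher and blue where lower; the dotted line is the median of all genes with a window, 11. Slc1a1, Atp11a, Slc44a1 and Grik3 hold the most CpG and are all higher, and below them both colours overlap. Over all listed genes with a window, higher genes also had the larger median, 20 CpG against 15. Windows were at hand for 14 of the 17 higher and 10 of the 20 lower genes, so nothing is read from these 4.

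The windows were searched on both strands for letters of known motifs, none of which contains another. GGTCTCTAA, the motif known for Prdm14, was in 0 of the 24 windows, in 3 of the 645 listed genes and in 0.267% of all windows. TCAAGGTCA, which Esrrb binds, was in 0 of the 24 and in 0.379% of all windows. GGGCGG, the GC box, was in 20 of the 24 (83.3%), against 62.3% of listed genes and 42.7% of all windows. It was in 11 of 14 higher and 9 of 10 lower genes, and Kcnk1 is the lower gene without it. TATAAA was in 4 of the 24 (16.7%), against 9.46% of listed genes and 13.2% of all windows, but in only 1 of the 18 windows within 1 kb of the annotated gene start (5.56%). A match describes letters only, and these windows leave out distant elements.

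Genes of related families, taken by 53 further symbol starts, added 8 listed genes, 3 higher and 5 lower. Over all 886 listed genes 52.8% were higher and 47.2% lower, so a count of 8 says nothing particular about these families. How many annotated genes the 53 starts cover was not counted. Gap junctions differed in direction: Gja1 was at 75.5 and 26.0 TPM, 2.90-fold lower, and Gjc1 at 36.6 and 114 TPM, 3.12-fold higher. Fxyd5, a modulator of the sodium pump, was at 5.53 and 0.942 TPM, 5.88-fold lower. None of the 8 annotated Atp1 genes, the family of the pump itself, was listed, where 3.79% of all protein-coding genes were. Nothing is read from their absence. Ttyh3, of the tweety membrane protein family, was at 26.2 and 7.84 TPM, 3.34-fold lower. Tmem63a, a mechanically gated channel, was at 23.2 and 8.85 TPM, 2.62-fold lower, and P2rx4, an ATP-gated channel, at 8.44 and 3.94 TPM, 2.14-fold lower. Mpc1, a subunit of the mitochondrial pyruvate carrier, was at 15.5 and 36.2 TPM, 2.34-fold higher, the opposite direction to the mitochondrial genes Slc25a10 and Slc8b1. Chrna9, a nicotinic receptor subunit, was at 6.59 and 15.1 TPM, 2.29-fold higher.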

How the data were processed

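RNA sequencing of 46C cells was deposited as 1 table of 886 genes chosen by the authors. Mean TPM per condition was computed by the authors and deposited with a log2 fold change, a p-value and a q-value, per the file headers. Bowtie 0.12.2 and mm10 are named in the submitters' processing notes; for the TPM program, the test and the number of values behind a mean, nothing is given in the sources used here, and the depth is unknown. The deposited log2 fold change equals the log2 ratio of the means to within 4.09e-11.

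All 886 IDs matched the GENCODE M21 annotation, which gave symbols and 1-based mm10 coordinates. Genes were taken by symbol and grouped by textbook substrate, gene by gene, in place of the planned grouping by family number, since Slc29a4 and Slc43a3 carry other substrates than some relatives. Slc46a3 was placed with its relative, the folate carrier. The genes, groups and related families were chosen with earlier results of these data known. Of the 37 genes, 35 are named with both means, and the other 2 are counted but not reported here. The sequences shown were limited to the largest folds and to family pairs of opposite direction. Of 10 genes matched by the related symbol starts, Tmco4 (letters only) and Atp10a (already a member) were left out. No test of the conditions was possible with 1 sample each. The counting and motif code was checked on simulated data. Alternatives changed the fold, q and TPM limits, the pseudocount and the genes kept. For each gene with several RefSeq windows, the one nearest the annotated gene start was used. Calculations used pandas 2.3.3 with numpy 2.4.6 under Python 3.11.15, and figures matplotlib 3.10.9.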

Additional observations from a re-analysis of the deposited data

How the results depend on the processing

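Neither the 17 higher nor the 20 lower genes changed in number by over 1.5 times without same-strand overlaps and without chromosomes 8 and X. A limit of 0.01 on q and the removal of symbols that match by letters only took out no gene, so they could not change the counts. Keeping genes with at least 4-fold differences left 4 and 4, and a larger mean of at least 10 TPM left 13 higher and 12 lower, which turns the majority round. The median log2 fold change, -1.03, is the value of a lower gene next to the gap between both directions, and moved easily: it was -0.90 with a pseudocount of 1 TPM, -1.02 with 0.1, -0.18 at the fold limit, -1.05 without chromosomes 8 and X, and 1.04, the reverse sign, at 10 TPM. Without same-strand overlaps and Abcb1a, chosen after seeing the data, it was -1.05. The summed ratio of 1.31 fell to 1.05 without Slc29a1, also chosen after seeing the data.

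Group medians rest on 1 to 5 genes. With a pseudocount of 1 TPM they were 0.16 for amino acids and peptides, 0.92 for bicarbonate, protons and water, -1.01 for calcium, 1.05 for Grik3, -0.063 for iron, 1.21 for lipids and drugs, 0.020 for nucleosides and nucleobases (reversed from -0.07), -1.18 for potassium channels, -0.999 for organic anions and carboxylates, 1.29 for transmitters and creatine and -0.99 for vitamins and choline. At 10 TPM they were -1.16 for amino acids and peptides (from 0.30), -0.091 for bicarbonate, protons and water (from 1.04) and 0.21 for organic anions and carboxylates (from -1.13), all reversed, and -0.11 for calcium, -2.43 for potassium channels, 0.10 for transmitters and creatine and -0.026 for vitamins and choline; fewer genes remain there. A pseudocount cannot turn the direction of a single gene. No paired analysis was possible because each condition has 1 sample and the result comes from no test. Leaving out a replicate was not possible for the same reason.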

Other observations

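Listed genes within 200 kb of a transporter or channel gene mostly shared its direction, but no more than listed neighbours did in general. Of 20 such pairs, 16 went the same way (80%), against 217 of 271 pairs over the whole table (80.1%). Slc43a1 and Slc43a3 are neighbours on chromosome 2, 72984 bases apart, and both were lower. Slc29a1 lies 1364 bases from Mymx, a muscle fusion gene, which was at 27.8 and 121 TPM, 4.35-fold higher. Slc25a10 lies 2774 bases from Mrpl12, a mitochondrial ribosome gene, which was at 311 and 134 TPM, 2.33-fold lower. Its listed neighbours Notumos and Bahcc1, 159969 and 199543 bases away, went the other way, 2.47-fold and 2.56-fold higher. The other opposite pairs were Slc17a9 with Nkain4 (4.90-fold higher) and Slc4a5 with Rtkn (2.81-fold higher). Slc6a8, one of the few higher genes on chromosome X, lies 13032 bases from Pnck, a kinase gene that was also higher there, at 1.81 and 7.09 TPM. Kcnd1 lies 39981 bases from Pim2, a kinase gene at 430.4 and 20.3 TPM and 21.2-fold lower. Whether neighbouring genes share reads or a regulatory element was not tested.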
